A study of Mus musculus with 9 samples.

Results

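AY036118, Lars2, Gm26870, Malat1 and Neat1 were followed across single-cell libraries of mouse thyroid, 5 of the 52636 genes of the count table, of which 27605 had at least 1 UMI (unique molecular identifier, 1 captured RNA molecule). They were chosen by name from differences between libraries already seen in these data, and the question was whether their levels go with the library, the depth of the cell or the treatment. Male C57BL/6 mice received 1 injection of antibody, and the labels give 7 days of treatment; the design text puts their age at 10 to 12 weeks and the treatment protocol at 10 to 14. RW mice received the isotype control against ragweed (40 mg/kg), aJ1aJ2 mice anti-Jag1 with anti-Jag2 (20 mg/kg each), and aN1aN2 mice anti-Notch1 (5 mg/kg) with anti-Notch2 (10 mg/kg). Jag1 and Jag2 are ligands of the Notch receptors. Each sample was a pool of thyroids from 6 mice, and each group had 3 samples.

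The sample titles carry internal numbers that fall into 3 runs, called series A, B and C here; what a series stands for is not given in the labels. Series A held RW 3 and aJ1aJ2 1, whose titles give no replicate number, and series B held RW 1, RW 2, aJ1aJ2 3 and aJ1aJ2 4. Series C held aN1aN2 1, 2 and 3 and nothing else, so the receptor blockade and series C cannot be told apart. The 9 libraries held 583 to 1805 cells and 3013324 to 11880793 UMIs, and the median cell held 2098 to 2237 UMIs in series C against 2823 to 4149 in the others. Mitochondrial genes took 3.82% to 4.66% of UMIs in series C and 5.00% to 7.13% in the others. Between libraries, 30 cells carried a barcode found in another library. The authors' 16 cell labels were used as deposited: all 6 thyrocyte markers listed for Th1 and Th3 stood above their level in the other cells, against 4 of 6 for Th2, 2 of 5 endothelial markers for EC2, 3 of 5 for EC3, and 4 of 5 for EC1 and EC4.

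The 5 genes are of different kinds. Malat1 and Neat1 are long noncoding RNAs kept in the nucleus: Malat1 sits in nuclear speckles, where splicing factors gather, and Neat1 is the scaffold of paraspeckles, which hold proteins such as Nono and Sfpq. Lars2 is a protein-coding gene for the mitochondrial leucyl-tRNA synthetase, which charges tRNA for translation of the mitochondrial genome. AY036118 and Gm26870 are annotated as long noncoding RNAs of no settled function; the first lies in a copy of ribosomal RNA sequence. Ribosomal RNA makes up most of a cell's RNA but is not polyadenylated in its mature form, and a 3′ single-cell kit captures RNA by its A-rich stretches. Of the 5, AY036118 was the one that shared sequence with annotated ribosomal RNA on chromosome 17, and Lars2, Gm26870, Malat1 and Neat1 held 0 of the 25-base words of CT010467.1 and Gm42418 there. Large-subunit and precursor ribosomal RNA sequences were not searched.

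In GENCODE M21 (GRCm38), AY036118 lies at chr17:39847113-39848035 on the minus strand, 923 bases long. It is covered by the ribosomal RNA entry CT010467.1 at chr17:39846353-39848827 on the same strand and, on the opposite strand, by Gm42418 at chr17:39846958-39848788. All 899 of its 25-base words occur in CT010467.1 on the same strand and in Gm42418 on the opposite one, so only the strand of a read can tell AY036118 from Gm42418. Both strands over chr17:39847537-39847611 are shown, since the ratio of the pair is used below; capitals mark a 25-base word that the other line holds as its reverse complement.
AY036118 minus strand: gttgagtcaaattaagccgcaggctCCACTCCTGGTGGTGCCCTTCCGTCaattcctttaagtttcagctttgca
Gm42418 plus strand: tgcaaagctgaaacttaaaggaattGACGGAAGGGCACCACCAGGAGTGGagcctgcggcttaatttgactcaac
The strand setting used in counting is not given in the sources used here.

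Gm26870 spans chr9:3000282-3038313 on the minus strand, with 2 exons and a transcript of 1170 bases. Shifted by 234 bases, the transcript matched itself at 78.3% of positions, against a median of 30.5% over all shifts, which makes it a tandem repeat. Its unit has the length and A-rich look of the mouse major satellite, the repeat of pericentromeric chromatin. It held words in common, on the opposite strand, with Gm10715 (360 of the 1059 distinct 25-base words of its transcripts), Gm10719 (357), Gm10721 (349) and Gm10718 (344). Over these words only the strand of a read tells Gm26870 from these genes. The strand setting used in counting is not given, so the values of Gm26870 are uncertain. A pair of successive units, at chr9:3024332-3024565 and chr9:3024098-3024331, is shown to make the repeat visible; 223 of their 234 bases are the same, and capitals mark the 11 that differ.
Gm26870 unit 1: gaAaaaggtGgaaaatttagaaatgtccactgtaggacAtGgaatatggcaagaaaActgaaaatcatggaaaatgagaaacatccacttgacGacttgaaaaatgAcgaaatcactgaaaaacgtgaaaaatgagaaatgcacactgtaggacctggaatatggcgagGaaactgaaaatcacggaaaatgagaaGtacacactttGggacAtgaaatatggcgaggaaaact
Gm26870 unit 2: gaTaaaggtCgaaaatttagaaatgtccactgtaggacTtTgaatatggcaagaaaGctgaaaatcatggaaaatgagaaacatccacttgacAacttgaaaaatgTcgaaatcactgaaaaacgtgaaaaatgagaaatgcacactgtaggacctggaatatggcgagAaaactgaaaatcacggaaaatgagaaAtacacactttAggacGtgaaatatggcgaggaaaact

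Malat1 (chr19:5795690-5802672, minus strand, 6983 bases) and Neat1 (chr19:5824708-5845478, minus strand, 20771 bases) are neighbours on chromosome 19. The mature 3′ end of Malat1 is not made by polyadenylation: RNase P cuts the transcript behind an A-rich tract written in the genome, and the piece that follows becomes the small mascRNA. The 112 bases at chr19:5795948-5796059 are shown because they hold that tract, which an oligo(dT) primer can bind; capitals mark a run of 12 A.
Malat1 3′ region: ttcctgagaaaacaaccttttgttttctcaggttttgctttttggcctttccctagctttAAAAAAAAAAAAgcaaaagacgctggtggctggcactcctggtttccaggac
The run starts at position 6674 of the transcript and 298 bases follow it. A run of 12 A on the sense strand was found in the longest transcript of 5.61% of 55341 genes (11.02% counting either strand), and in 29.2% of the 1659 transcripts at least as long as that of Malat1 (48.4% either strand). Lars2 lies at chr9:123366927-123462666 on the plus strand.

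Malat1 gave 1004860 of the table's 63121420 UMIs and was seen in 71.6% of the 10186 cells. AY036118 had 24557 UMIs in 62.9% of cells, Neat1 22215 in 42.7%, Lars2 15052 in 51.6% and Gm26870 1810 in 8.47%. Gm42418, on the other strand of AY036118, had 379303 UMIs and was seen in 98.1% of cells. Levels below are in CPM, a gene's UMIs scaled to 1000000 UMIs of the cells summed, and are compared between samples or labels for 1 gene at a time.

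AY036118 fell into 3 tiers that matched the series. Those of series A and B each held RW and aJ1aJ2 samples, and that of series C held aN1aN2 alone. Over all cells of a library it stood at 131.4 CPM in RW 3 and 244.8 CPM in aJ1aJ2 1 (series A). In series B it stood at 472.8 and 724.6 CPM in RW 1 and RW 2, and at 652.2 and 520.3 CPM in aJ1aJ2 3 and aJ1aJ2 4. In series C the 3 aN1aN2 samples held 35.7, 26.8 and 33.5 CPM. Both series A samples were below all of series B, and all of series C was below both, with no overlap.

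The same order held inside labels. In EC4, an endothelial label, AY036118 stood at 545.8 CPM in RW 3 and 811.5 CPM in aJ1aJ2 1, against 2095.4, 2180.1, 2083.2 and 1311.7 CPM in RW 1, RW 2, aJ1aJ2 3 and aJ1aJ2 4, and 59.6, 46.0 and 41.4 CPM in aN1aN2. In Th1, the thyrocytes, the series A values were 63.4 and 162.3 CPM, those of series B ran from 266.0 to 473.6 CPM, and aN1aN2 had 49.3, 33.9 and 37.8 CPM. Even Eryth1, an erythroid label, went from 56.7 and 114.8 CPM in series A to between 426.2 and 536.7 CPM in series B. Of the 7 labels with at least 20 cells in every sample (EC1, EC4, Eryth1, Eryth2, F, Th1 and Th3), AY036118 had both series A samples below all of series B in 7 and all aN1aN2 samples below the rest in 7. Over all genes that were in these labels, 11.2% of 30446 gene-by-label values showed the first order and 12.5% the second; these orders had been seen when the gene was chosen, so the counts describe it only.

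**Figure D1:**
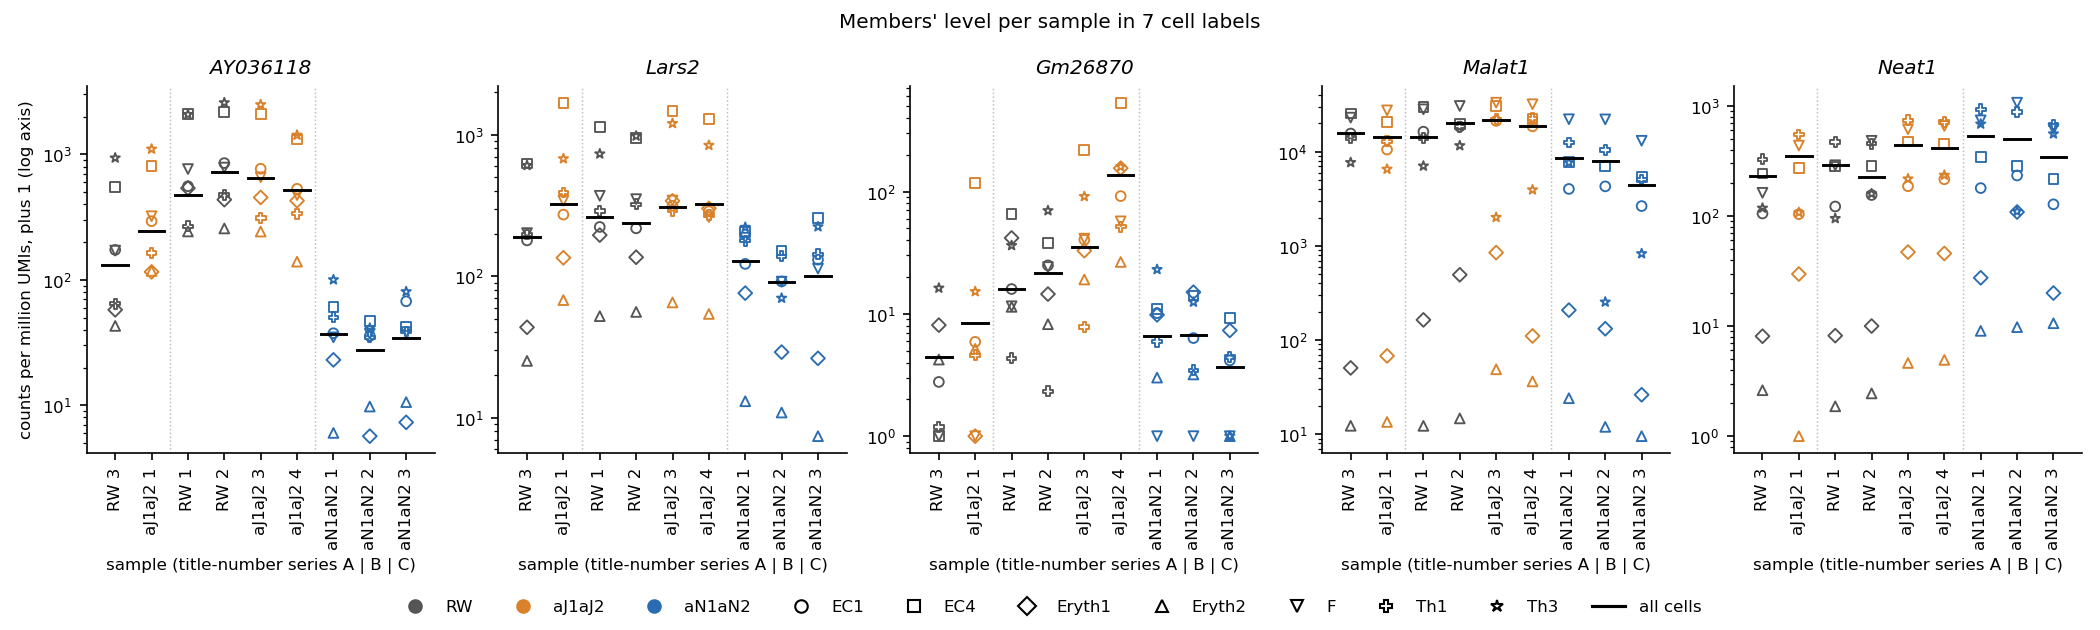
Level of each gene (CPM + 1, log axis) in the 9 samples, ordered by series; points are the 7 labels with at least 20 cells in every sample and short black bars are all cells of the library. AY036118 steps up from series A to series B and down in series C in each label, whereas Neat1 has no label in which all series C samples lie below the rest.

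With the group held fixed, AY036118 still differed between series. In RW, its log2 level in series B minus series A had a median of 2.15 over the 7 labels (range 1.30 to 2.93), and in aJ1aJ2 0.99 (0.63 to 1.83). With the series held fixed, aJ1aJ2 minus RW had a median of 0.89 in series A and of -0.30 in series B. The median difference between treatments was thus above 0 in series A and below 0 in series B. The median difference between series was above 0 in both treatments. In a fit with group and series as terms, the series coefficient of AY036118 was positive in 10 of 11 labels, with a median of 1.59 (log2). Series A had 1 sample of each group, so these values have no replicate error of their own within a group. They describe a gene chosen from library differences, and series against treatment was not tested.

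The share of the ribosomal locus read on the AY036118 strand moved as well. Over all cells there were 2.67 and 3.48 UMIs of AY036118 per 100 of Gm42418 in series A, 8.50, 11.9, 8.05 and 4.95 in series B, and 1.501, 1.66 and 1.77 in series C. Library size cancels in this ratio. The series means were 3.08, 8.34 and 1.64 over all cells, 1.82, 5.92 and 1.57 in Th1, and 1.88, 6.12 and 1.29 in EC4. Series A was below all of series B in 3 of 7 labels (EC4, F and Th1), and series C was below all others in 6 of 7, Th1 being the label where it overlapped. Gm42418 itself had series A below series B in 2 of 7 labels and series C below all others in 7, beside 11.2% and 12.5% over all genes.

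**Figure D2:**
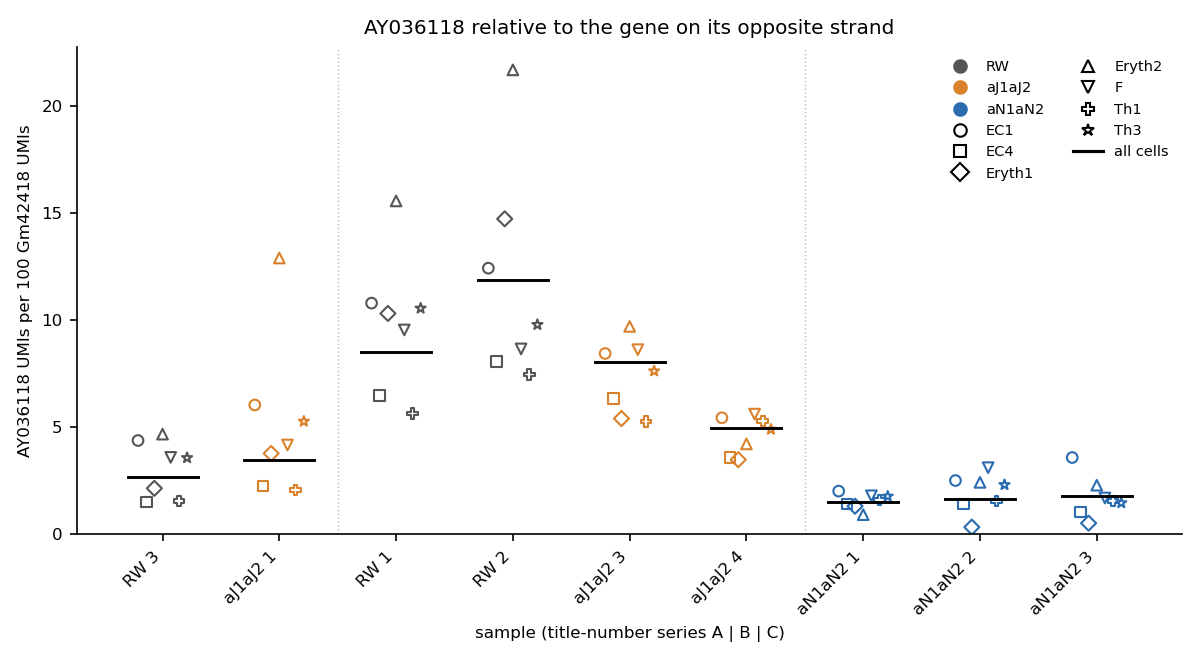
UMIs of AY036118 per 100 UMIs of Gm42418, its partner on the opposite strand, by sample and series, for all cells and single labels. All cells of series B sit between 4.95 and 11.9, above series A (2.67 and 3.48) and series C (1.501 to 1.77).

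Lars2 was low in series C, and its series B values exceeded those of series A in RW but not at the median in aJ1aJ2. Over all cells it stood at 188.6 CPM in RW 3, 262.8 in RW 1, 236.0 in RW 2, 323.6 in aJ1aJ2 1, 309.0 in aJ1aJ2 3 and 320.6 in aJ1aJ2 4. In the 3 aN1aN2 samples it stood at 127.2, 90.4 and 98.6 CPM. The aJ1aJ2 samples lay above the RW samples, and the aN1aN2 samples below all others. In EC4 it was 623.8, 1133.8 and 941.4 CPM in RW 3, RW 1 and RW 2, 1681.1, 1476.7 and 1292.2 CPM in aJ1aJ2 1, 3 and 4, and 203.5, 151.1 and 256.8 CPM in aN1aN2, so there too the 3 groups did not overlap. In Th1 RW and aJ1aJ2 did overlap, with 195.6, 288.0 and 320.9 CPM in RW 3, RW 1 and RW 2 and 388.5, 289.3 and 268.0 CPM in aJ1aJ2 1, 3 and 4. They overlapped in F, Th3, Eryth1 and Eryth2 as well. The share of all genes with the EC4 order was not counted. Lars2 had series A below series B in 2 of 7 labels (Eryth1 and Th3), beside 11.2% of gene-by-label values over all genes. It had aN1aN2 below all others in 6 of 7, beside 12.5%. In RW its series B minus series A had a median of 0.72 (0.30 to 1.73, log2), above 0 in every one of the 7 labels, and in aJ1aJ2 -0.19 (-0.48 to 1.17). With the series fixed, aJ1aJ2 minus RW had a median of 0.99 in series A and 0.25 in series B.

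Gm26870 was far higher in 1 library, aJ1aJ2 4, than in any other. It stood at 3.45 and 7.45 CPM over all cells of RW 3 and aJ1aJ2 1, 14.8, 20.6 and 33.9 CPM in RW 1, RW 2 and aJ1aJ2 3, 136.6 CPM in aJ1aJ2 4, and 5.62, 5.70 and 2.65 CPM in aN1aN2. That library was the highest in 14 of the 15 labels where it had at least 20 cells. In EC4 the UMIs behind the values were few: 0, 9 and 3 in RW 3, RW 1 and RW 2, 6, 41 and 109 in aJ1aJ2 1, 3 and 4, and 2, 2 and 1 in aN1aN2. Series A lay below series B in 5 of 7 labels, and aN1aN2 below all others in 1 (Eryth2). Over all genes, 11.2% and 12.5% of gene-by-label values showed these orders. For Gm26870, series B minus series A had a median of 2.12 in RW and 2.57 in aJ1aJ2. The gene is a repeat with 25 or fewer UMIs in each aN1aN2 library, so its level there is poorly set.

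Malat1 was low in series C in some labels, and its series A and B samples overlapped over all cells. Over all cells RW 3, RW 1 and RW 2 held 15873, 14408 and 19991 CPM, and the samples aJ1aJ2 1, 3 and 4 held 14522, 21910 and 18839 CPM. The aN1aN2 samples held 8575, 7908 and 4385 CPM, all below the others. In EC1, aN1aN2 held 4027, 4290 and 2649 CPM, below the 10543 to 21269 CPM of the other 6 samples. In Th1, aN1aN2 held 12555, 10424 and 5075 CPM, next to 12890 to 22732 CPM in the others, which leaves the groups apart by a narrow gap. The fibroblast label F, where the gene was high, had 22153, 22069 and 13087 CPM in aN1aN2 and 23036 to 33213 CPM elsewhere. All aN1aN2 samples were below the rest in 4 of 7 labels (EC1, EC4, F and Th1), and both series A samples were below all of series B in 4 of 7 (EC1, Eryth1, F and Th1). Over all genes, 12.5% and 11.2% of gene-by-label values showed these orders. For Malat1, series B minus series A had a median of 0.20 in RW (-0.08 to 2.34) and 0.80 in aJ1aJ2 (-1.21 to 2.02).

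Neat1 took another course from its chromosomal neighbour. Over all cells it stood at 227.7, 290.0 and 223.5 CPM in RW 3, RW 1 and RW 2, at 349.6, 440.6 and 416.9 CPM in aJ1aJ2 1, 3 and 4, and at 527.0, 495.3 and 342.1 CPM in aN1aN2. Every antibody-blocked sample was above the RW samples, and aN1aN2 overlapped aJ1aJ2. In Th1 the RW samples had 325.9, 469.8 and 450.9 CPM, the aJ1aJ2 samples 547.2, 739.0 and 710.9 CPM, and the aN1aN2 samples 929.9, 879.3 and 677.2 CPM. In EC4 there was no such order: RW had 241.7, 279.9 and 284.9 CPM, aJ1aJ2 270.5, 474.6 and 453.5 CPM, and aN1aN2 342.4, 282.4 and 215.4 CPM. Series A was below series B in 2 of 7 labels (EC1 and EC4), beside 11.2% of gene-by-label values over all genes. For Neat1, series B minus series A had a median of 0.23 in RW and 0.69 in aJ1aJ2. Series C was below all others in 0 of 7 labels and above all others in 1 (Eryth2), beside 12.5% for either order over all genes. Eryth2 held Neat1 at 9.6 CPM or less in every sample.

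Differences between treatment groups were fitted with edgeR's quasi-likelihood test on sums per sample and label over all genes, and a gene was called at an adjusted p of 0.05. The 5 genes were chosen with these contrasts known, so their log2 differences with standard errors (SE) and calls are a description and nothing is read from the counts. The comparisons with RW share the RW samples and those of aN1aN2 share the aN1aN2 samples.

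Between aJ1aJ2 and RW, 2 of 55 values of the 5 genes (12 labels) were called higher and 0 lower; over all genes 0.331% of 46530 values were called higher and 0.327% lower. The calls were Gm26870 in EC4 (log2 difference 3.32, SE 0.52) and Neat1 in Th1 (0.67, SE 0.14). Lars2 was above 0 in 12 of 12 labels with a median of 0.45, Neat1 in 11 of 11 with 0.77, Gm26870 in 8 of 8 with 1.94, Malat1 in 7 of 12 with 0.12 and AY036118 in 5 of 12 with -0.08; the median over all genes was 0.00. DESeq2 did not call Gm26870 in EC4, where it gave a log2 difference of 3.16. Neither call held in all 9 fits that left out 1 sample: Gm26870 in EC4 was lost without aJ1aJ2 4, and Neat1 in Th1 was kept in 2 of 9, those without aJ1aJ2 1 and without aN1aN2 3. With series as a term, 10 of 51 values were called higher, beside 1.29% of 45010 over all genes; 5 of the 10 were in S, where RW 1 was the only RW sample of series B and series A had RW 3 alone. In series B alone, 7 of 54 were called higher, beside 1.29% of 52018; Gm26870 in EC4 and EC1, Lars2 in EC1 and Neat1 in Th1 were called in both settings.

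Between aN1aN2 and RW, 22 of 41 values (9 labels) were called lower and 4 higher, beside 9.82% and 10.0% of 39430 values over all genes. AY036118 was called lower in 9 of 9 labels, from -5.04 (SE 0.45) in EC4 to -2.67 (SE 0.54) in Th1, with a median of -4.44. Lars2 was called lower in 8 of 9, with a median of -1.18, and Malat1 in 5 of 9: EC1 (-2.23, SE 0.20), EC4 (-1.96, SE 0.19), EC3 (-1.62, SE 0.18), EC2 (-1.39, SE 0.23) and Th1 (-0.73, SE 0.24). Neat1 was the gene with calls upward, in Eryth1 (2.55, SE 0.73), F (1.41, SE 0.30), EC2 (1.05, SE 0.26) and Th1 (1.00, SE 0.14). Gm26870 was called in 0 of 6. Of these 26 calls, 20 were kept in every fit that left out 1 sample. Malat1 in Th1 was lost without RW 2, aN1aN2 2 or aN1aN2 3, and Lars2 in EC2 and Eryth1 without RW 1, aN1aN2 2 or aN1aN2 3. Neat1 in EC2 was lost without RW 1 or aN1aN2 1. Lars2 in Th3 was kept in 4 of 9 fits and Neat1 in Eryth1 in 2 of 8. The Eryth1 value of Neat1 rested on 1, 3 and 4 UMIs in RW 3, RW 1 and RW 2 and on 6, 23 and 3 UMIs in aN1aN2 1, 2 and 3. DESeq2 did not call Neat1 in Eryth1 and EC2, Lars2 in Eryth1 and EC2, or Malat1 in Th1.

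Between aN1aN2 and aJ1aJ2, 33 of 46 values (10 labels) were called lower and 0 higher, beside 6.48% and 6.42% of 42444 values over all genes. AY036118 and Lars2 were called lower in 10 of 10 labels each, with medians of -4.29 and -1.80. Gm26870 was called lower in 5 of 7 (median -3.42) and Malat1 in 7 of 10 (median -1.54), and Neat1 in EC4 alone (-0.73, SE 0.22). In the fits that left out 1 sample, 26 of the 33 calls were kept in every fit that tested them. Those lost in some were Gm26870 in EC1 and Eryth2, Lars2 in EC3 and Th3, Malat1 in F, Neat1 in EC4 and AY036118 in Th3, the last without aN1aN2 3. DESeq2 did not call Gm26870 in EC1 or Neat1 in EC4. Without aJ1aJ2 4, Gm26870 was lost in EC1 and Eryth2, kept in EC2 and EC4, and not tested in SM. Series C and the receptor blockade coincide in each of these values, and cannot be told apart in either comparison with aN1aN2.

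**Figure D3:**
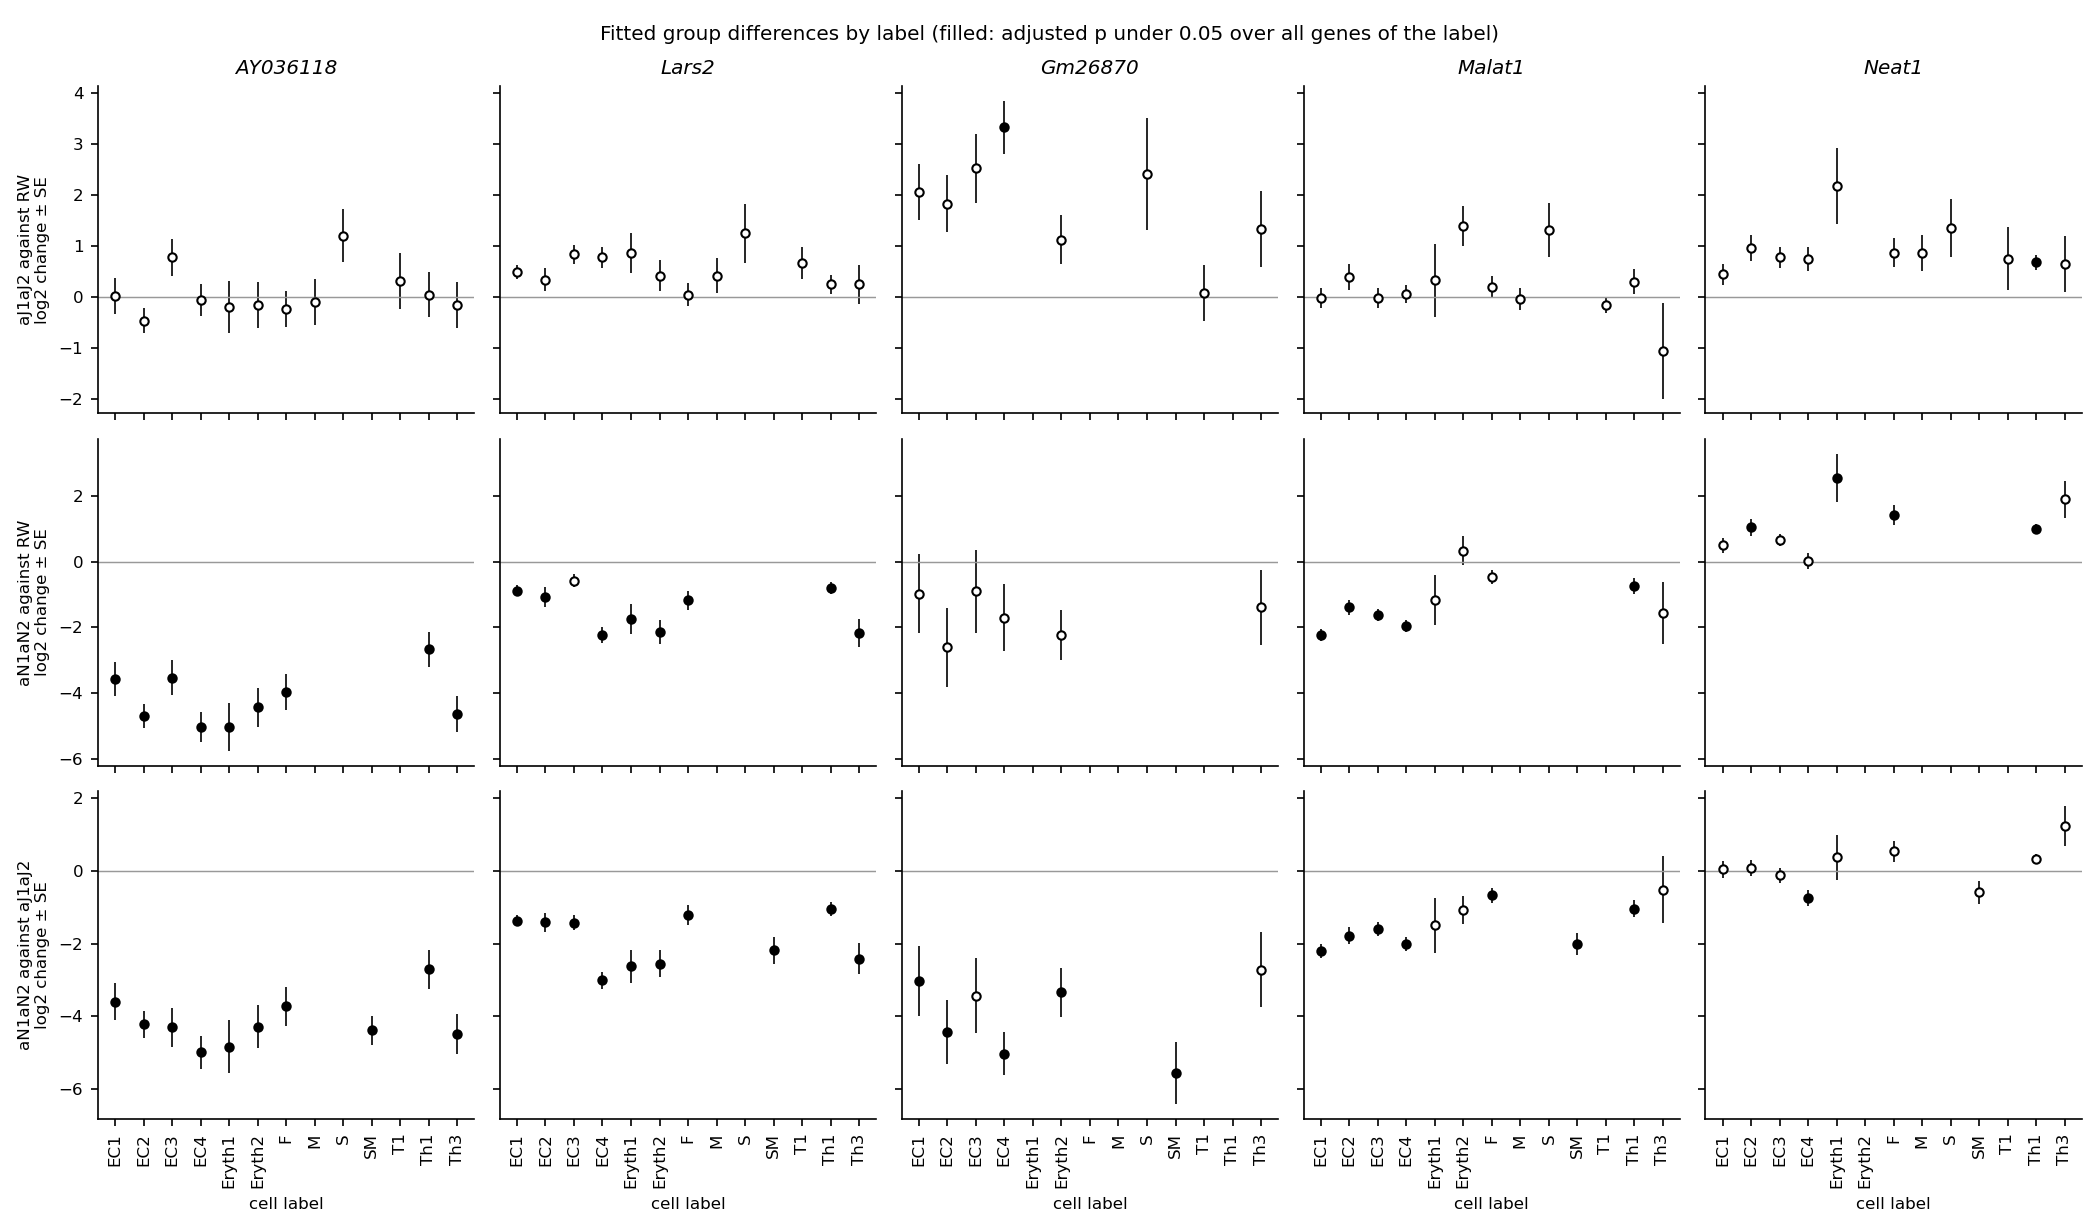
Log2 difference between groups with its SE for each gene in each label tested, from the fits over all genes. AY036118 lies between -5.04 and -2.67 for aN1aN2 against RW, Neat1 lies at or above 0 there, and the aJ1aJ2 values of AY036118 scatter around 0.

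Labels were compared within each sample, as the log2 ratio to Th1 with 0.5 UMIs added to each sum. Among the 7 labels with at least 20 cells in every sample, AY036118 was higher than in Th1 in EC4 in 9 of 9 samples (median log2 ratio 2.21, range 0.25 to 3.11) and in Th3 in 9 of 9 (2.45), and lower in Eryth2 in 9 of 9 (-0.89). Lars2 had the same leading labels among these 7, EC4 (1.68, 9 of 9) and Th3 (1.35, 8 of 9), and was lowest in Eryth2 (-2.54). These ratios were smaller in aN1aN2 1, 2 and 3. For AY036118 they were 0.32, 0.53 and 0.25 in EC4, against 1.97 to 3.11 in series A and B. In Th3 they were 1.08, 0.33 and 1.19, against 2.09 to 3.88. For Lars2 in EC4 they were 0.22, 0.17 and 0.87, against 1.56 to 2.35. Th2, with enough cells in 2 samples, stood at 2.66 for AY036118 and 2.84 for Lars2. Gm26870 had few UMIs per label, and its plain CPM was above that of Th1 in 8 of 9 samples in each of EC4, Th3 and Eryth1; the ninth sample had 0 UMIs of it in the label. EC1 had the same tally, 8 of 9, with no sample at 0 UMIs. Median cells held 1045.5 UMIs in EC4, 987 in Th3 and 1014 in Th2, against 12553 in Th1, 3994 in EC1 and 5632.5 in F. M, the macrophages, had shallow cells too (1191.5 UMIs), and there AY036118 was above Th1 in 6 of 6 samples (1.13) and Lars2 below it in 5 of 6 (-0.63). Mitochondrial genes took 9.04% to 15.1% of UMIs in EC4 of series A and B and 5.51% to 6.99% in series C, against 3.98% to 6.68% in EC1 and 0.336% to 1.56% in Eryth2. In Th3 they took 3.71% to 14.4%, beside 6.60% to 10.1% in Th1. The part of depth and of the mitochondrial share in these label differences was not tested.

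Malat1 and Neat1 ranked the labels otherwise. Among the same 7 labels Malat1 was highest in F in 7 of 9 samples (median log2 ratio to Th1 0.82) and in EC4 in the other 2, and Neat1 was highest in Th1 in 7 of 9 and in F in the other 2. Outside the 7, Malat1 stood higher in Th2 (1.78, 2 samples), S (1.00, 4 samples) and T1 (0.92, 5 samples), and Neat1 in Th2 (2.36) and S (0.82). Erythroid labels, whose cells lose or have lost the nucleus, were low: Malat1 in Eryth1 was 85.4-fold and in Eryth2 905-fold below Th1 at the median, and Neat1 30.6-fold and 161-fold. Tg, the thyroglobulin gene that erythroid cells should lack, stood at log2 ratios of -7.00 in Eryth1 and -9.50 in Eryth2, beside -6.42 and -9.82 for Malat1 and -4.94 and -7.33 for Neat1. Malat1 was thus near Tg on this scale and Neat1 above it, and the part of free RNA in these levels was not tested. AY036118 had smaller differences, with medians of -0.12 in Eryth1 and -0.89 in Eryth2. In Eryth1 it lay between -0.44 and 1.02 in series A and B and at -1.03, -2.28 and -2.02 in aN1aN2, so it was below Th1 in 6 of 9 samples, the 3 of aN1aN2 being the lowest. Malat1 stood on both sides of Th1 in EC4 (median 0.10, above in 6 of 9) and EC1 (-0.29, above in 3 of 9).

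Depth was followed inside each sample and label, where treatment, library and cell label are fixed. The cells of a label were split at their median UMI count, counted without the 5 genes, and the log2 ratio of the deeper to the shallower cells' CPM was averaged over the non-erythroid labels with at least 40 cells. There were 61 sample-by-label pairs over 12 labels, with 3445 shallower and 3478 deeper cells, and a median depth ratio of 2.41. This measure does not use the group contrasts that chose the genes. It was tested with an exact two-sided sign-flip permutation test over the 9 samples, with p-values adjusted over the 8957 genes with a mean of at least 10 CPM. The smallest p that 9 samples allow is 0.00390625.

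AY036118, Lars2 and Gm26870 took a smaller share of the RNA in deeper cells in 9 of 9 samples each, as did 15.8% of the 8957 genes. In Th1 of RW 1, for instance, AY036118 stood at 672 CPM in the shallower and 153 CPM in the deeper cells, and in aN1aN2 1 at 86.1 and 42.0 CPM. Lars2 in Th1 of RW 3 went from 411 to 145 CPM. The mean log2 ratio was -1.04 ± 0.44 for AY036118, -1.01 ± 0.20 for Lars2 and -1.82 ± 0.65 for Gm26870 (SD, n = 9; exact permutation test, p = 0.00390625 and adjusted p = 0.0240 each). Over all genes the median was -0.25, the 5th percentile -1.04, and 25.4% of genes were called lower and 1.27% higher. The 0.5 counts added to each sum lower this mean for sparse genes, so the background is itself shifted, and so is Gm26870. A label with 0 UMIs of Gm26870, as EC3 and EC4 in RW 3, gives a ratio below 0 by construction. The size, sign and p of Gm26870 by this measure are thus partly set by the added counts. Its ratios were -1.31 in RW 3 and -1.08 in RW 2, against -0.57 and -0.43 by the Mantel-Haenszel ratio given next.

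A Mantel-Haenszel ratio, which pools the labels of a sample before the ratio is taken, had a median of 0.06 over all genes, with a 5th percentile of -0.29. It gave -1.17 for AY036118, -1.17 for Lars2, -1.67 for Gm26870 and -0.68 for Neat1. Each of these 4 was below 0 in 9 of 9 samples, as were 1.59% of all genes. Their p of 0.00390625 became 0.0690 when adjusted over all genes (exact permutation test, n = 9), the smallest adjusted value in that test, so 0 of 8957 genes were called by it; 1921 had an unadjusted p under 0.05.

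Neat1 by the mean of log ratios was lower in deeper cells in 8 of 9 samples, with a mean of -0.30 ± 0.28 (SD, n = 9; exact permutation test, p = 0.0117, adjusted p = 0.0440), next to the median of -0.25 over all genes. It stood at 0.0057 in RW 3, -0.0045 in aJ1aJ2 1, -0.0080 in RW 1 and -0.11 in RW 2, at -0.28 and -0.44 in aJ1aJ2 3 and 4, and at -0.58, -0.63 and -0.65 in aN1aN2. By this measure aN1aN2 lay below the other 6 samples, but the labels averaged were not the same in each sample: M, where Neat1 was higher in the deeper cells (median log2 ratio 1.55), entered in 5 samples of series A and B and in 0 of aN1aN2. By the Mantel-Haenszel ratio the groups overlapped, with -0.65, -0.29 and -0.83 in RW 3, RW 1 and RW 2, -0.66, -0.77 and -0.60 in aJ1aJ2 1, 3 and 4, and -0.85, -0.51 and -0.95 in aN1aN2. The unadjusted p was 0.172 with cells split at 2000 UMIs (-0.25, exact permutation test, n = 7) and 0.109 in EC1 alone (-0.26, n = 9, same test).

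Malat1 had no direction that held. By the mean of log ratios it was below 0 in the 3 aN1aN2 samples (-0.09, -0.49 and -0.28) and between 0.25 and 1.29 in the other 6, with a mean of 0.34 ± 0.58 (SD, n = 9; exact permutation test, p = 0.125, adjusted p = 0.230). M, with 10 or fewer cells in each aN1aN2 sample, entered the average in series A and B alone; there deeper cells held more Malat1 in all 5 samples with enough cells (median log2 ratio 5.38). By the Mantel-Haenszel ratio the mean was -0.21 (p = 0.152, adjusted p = 0.402 in the same exact test), and the 3 samples above 0 were aJ1aJ2 4 (0.04), aN1aN2 1 (0.05) and aN1aN2 2 (0.57). In T1, the T and NK cells, deeper cells held less Malat1 in 3 of 3 samples (-0.96).

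**Figure D4:**
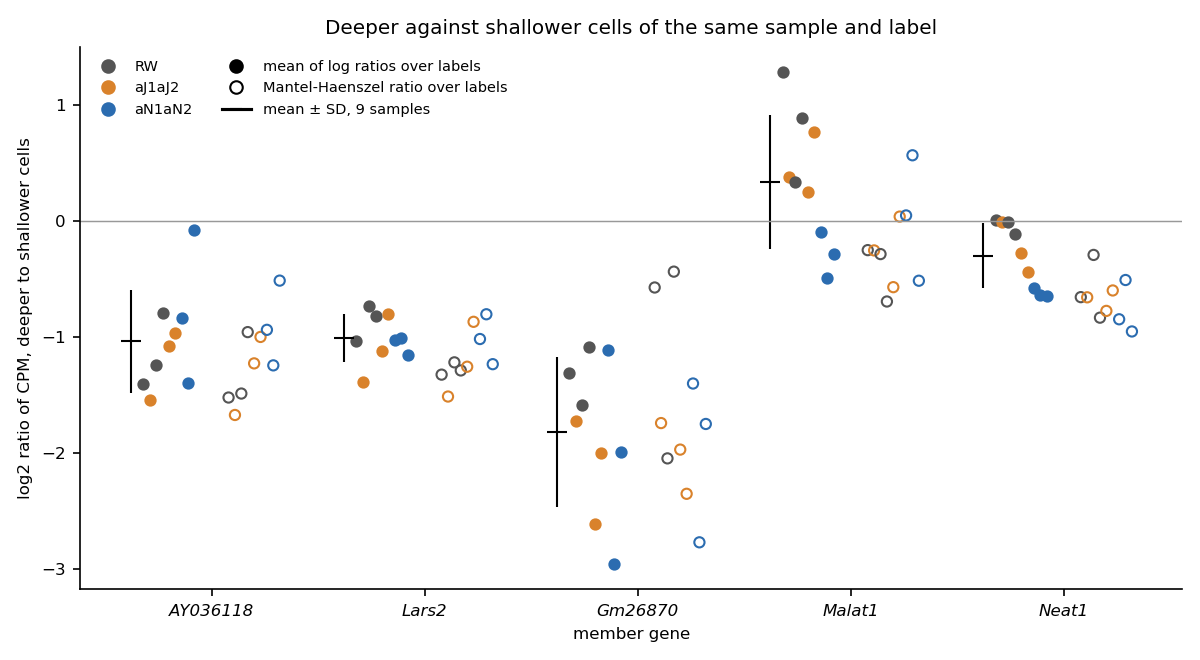
Log2 ratio of each gene's CPM in the deeper to that in the shallower cells, 1 point per sample, as the mean of log ratios over labels (filled, with mean and SD over the 9 samples) and as the Mantel-Haenszel ratio (open). All samples lie below 0 for AY036118, Lars2 and Gm26870, and samples lie on both sides of 0 for Malat1.

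Depth also differed between series within some labels. The median Th1 cell held 5737 to 7558 UMIs in series C and 9968 to 22558 in the others, whereas in EC4 it held 939 to 1048 in series C and 880 to 1213.5 in the others. Thinning each cell to 1000 UMIs left out 1785 shallower cells and kept 8401 of 10186, with 52.9% of cells kept in EC4, 49.2% in Th3 and 100% in Th1. The setting thus changed which cells entered as well as their depth. With it, aN1aN2 against RW gave 20 values called lower and 3 higher of 34, beside 10.9% and 11.3% of 10192 over all genes. Thinned, aN1aN2 against aJ1aJ2 gave 26 lower and 1 higher of 39 (7.65% and 8.49% of 10756), and aJ1aJ2 against RW gave 3 higher of 40 (0.475% of 11165).

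Genes with a like pattern were sought over the 105 sums of a sample and label, among 8957 genes with a mean of at least 10 CPM. The sums share libraries, depth and labels, so Pearson's r is a description. With all sums, AY036118 was most like Gm42418 (r = 0.87), mt-Rnr1 (0.83), Lars2 (0.78), mt-Rnr2 (0.76) and Mir6236 (0.66), and Lars2 was most like Gm42418 (0.93), mt-Rnr1 (0.90) and mt-Rnr2 (0.90); mt-Rnr1 and mt-Rnr2 are the ribosomal RNAs of the mitochondrial genome. With each label's mean removed, AY036118 was closest to mt-Rnr1 (0.92), mt-Rnr2 (0.90), Gm42418 (0.90) and Lars2 (0.89), so these stayed together across samples too. Gm26870 was closest to Gm42418 (0.65) and AY036118 (0.65) over all sums, and to mt-Nd2 (0.63), Gm42418 (0.63) and mt-Nd5 (0.61) with the label means removed.

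Malat1 was most like Son (0.96), Pnisr (0.96), Prpf4b (0.95), Rsrp1 (0.95) and Srrm2 (0.95); Son and Srrm2 are the core proteins of nuclear speckles. Neat1 was most like Srsf5 (0.89), Ddx6 (0.89), Leng8 (0.89), Son (0.89) and Ddx17 (0.88). With the label means removed, Malat1 was closest to Rrbp1 (0.71), Gm42418 (0.71), AY036118 (0.69), Lars2 (0.69) and Kcnq1ot1 (0.67), and the genes close to Neat1 included Timp3 (0.60) and Txnip (0.59). Malat1 and Neat1 correlated at 0.84 over all sums and at 0.06 with the label means removed. Neat1 and AY036118 went from 0.25 to -0.22.

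The lists of related genes were counted in Th1 for aN1aN2 against RW, where 1814 of 10627 genes were called higher and 1840 lower, with a median log2 difference of 0.02. Of the other rRNA-overlapping and structural RNAs, 3 of 10 listed were tested and 3 were called lower (median -1.14), among them Rn7sk, the 7SK RNA (-3.002), and Gm26917, at the same chromosome 17 locus (-1.14). Gm42418 was called lower in 9 of 9 labels, from -0.97 in Th1 to -3.14 in EC4. Of the 15 genes of the mitochondrial genome, 3 were called higher, led by mt-Atp6 (1.23) and mt-Co3 (1.18), and 6 lower, led by mt-Rnr2 and mt-Rnr1 (-1.24 each), with a median of -0.15 over the 15.

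Beside Lars2, of 15 tested mitochondrial aminoacyl-tRNA synthetases, 2 were called higher (Wars2 1.53, Fars2 0.49) and 2 lower (Aars2 -1.49, Yars2 -0.92). Lars, the synthetase of the cytosol, was called lower in Th1 as well (log2 difference -0.42, SE 0.14, adjusted p = 0.0317 in edgeR's test), where Lars2 had -0.80 (SE 0.19), and had -0.22 (SE 0.24) in EC1, where Lars2 had -0.88 (SE 0.16). RNA polymerase I and ribosome biogenesis genes, which make and process ribosomal RNA, had 2 of 24 called higher (Npm1 1.23, Polr1d 0.53) and 9 lower, led by Bop1 (-0.97) and Nolc1 (-0.89). The difference between Lars2 and Lars was not tested.

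Around Neat1, the 15 paraspeckle proteins had 2 called higher, Nono (0.99) and Matr3 (0.65), and 4 lower, led by Pspc1 (-0.99) and Sfpq (-0.80). Around Malat1, the 20 speckle and SR proteins had 4 called higher, led by Clk1 (1.41) and Srsf5 (0.61), and 6 lower, led by Srsf3 (-0.69) and Srsf6 (-0.61). Of 8 tested other nuclear long noncoding RNAs, Gas5 (1.64) and Firre (0.69) were called higher and Kcnq1ot1 (-1.03) lower. The dissociation response, genes switched on when tissue is digested, had 3 of 14 called higher, led by Zfp36 (1.63) and Btg2 (1.32), and 2 lower, Jun (-0.91) and Hsp90aa1 (-0.89). For aJ1aJ2 against RW in Th1, 0 genes of any of the 8 lists were called, beside 41 higher and 24 lower over all genes. In EC1 the same comparison called 5 of 15 tested dissociation genes and 1 of 4 rRNA-overlapping and structural RNAs lower. There 1 of 15 mitochondrial genome genes, mt-Rnr1 (0.50), was called higher, and the other lists had 0 calls. Over all genes in EC1, 50 of 9369 were called higher and 83 lower. The lists were not compared with other genes by a test.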

How the data were processed

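Thyroid single-cell libraries of 9 samples were analysed. The authors deposited raw UMI counts per gene and cell and a cell label for each cell; Cell Ranger and GRCm38 are named per the submitters' processing notes, and its version, the annotation release, the strand setting and the cell filters are not given in the sources used here. Symbols and positions came from GENCODE M21. The cells held 500 to 131347 UMIs, and 52403 of 52636 identifiers matched a symbol. Doublets were not called.

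Counts were summed per sample and label (at least 20 cells) and fitted with edgeR 4.0.16 (filterByExpr, TMM, quasi-likelihood test, Benjamini-Hochberg adjustment over the genes of a label) in R 4.3.3, with 3 group means over all 9 samples. DESeq2 1.42.0 was an alternative. The depth split and permutations used Python 3.11.15, NumPy 2.4.6 and SciPy 1.17.1. The edgeR script was tested on simulated data. No 2 replicates agreed within sampling noise: the chi-square per degree of freedom over genes was 9.25 to 105.

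Named were the 5 genes, the 5 genes with the highest r to each, and from each list up to 2 genes with the largest rise and fall called in Th1; 1 gene that the rule names is not reported here. The genes and lists were chosen with earlier results of these data known. The Mantel-Haenszel ratio, and the adjustment of the depth test over all genes with a mean of at least 10 CPM, were added after the data were seen.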

Additional observations from a re-analysis of the deposited data

How the results depend on the processing

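For aJ1aJ2 against RW (2 calls), DESeq2 called 1, cells with at least 2000 UMIs 1, no filter on low counts 9, series B alone 7 and the series term 10; leaving out 1 sample gave 0 (without aJ1aJ2 4) to 7 (without aJ1aJ2 1), with 6 without RW 3 and 1 without aN1aN2 1 or without aN1aN2 2. For aN1aN2 against RW (26 calls), at least 50 cells per sum left 15 calls of 27 values tested and cells with at least 2000 UMIs 16 of 25, with 22 to 26 on leaving out 1 sample. For aN1aN2 against aJ1aJ2 (33 calls) the same settings gave 17 of 27, 16 of 25, and 27 to 36. DESeq2 called 22 and 31 in these comparisons. With the replicate block over RW 1, RW 2, aN1aN2 1 and aN1aN2 2, there were 21 calls of 35 values, against 22 in those samples without the block. The deviations of samples that share a number correlated at -0.196 to 0.0456 over 7 labels. What a shared number stands for is not given in the labels, and these correlations cannot show it. The depth ratio of Malat1 turned negative in Th1 alone (-0.152), in EC1 alone (-0.188) and by the Mantel-Haenszel ratio (-0.212); the cause was not tested. That of Neat1 was -0.249 with cells split at 2000 UMIs and -0.255 in EC1 alone, neither past the threshold. The Mantel-Haenszel values (-1.17 for AY036118 and Lars2, -1.67 for Gm26870, -0.68 for Neat1) missed it when adjusted over all genes, since no p from 9 samples passed there. On leaving out 1 sample the depth ratios ran from -1.16 to -0.97 for AY036118, -1.04 to -0.96 for Lars2, -1.91 to -1.67 for Gm26870, 0.22 to 0.44 for Malat1 and -0.34 to -0.26 for Neat1. Gm26870 is limited by its few UMIs, and counting error there is large.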
